A study of Rattus norvegicus with 6 samples.

Results

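The p53 target genes described here are 10 genes chosen by name: Cdkn1a, Ccng1, Perp, Tp53inp1, Mdm2, Bax, Btg2, Gadd45a, Sesn1 and Phlda3. They were matched by symbol to every probe of a 1-colour Agilent rat array, through the RefSeq accession that the scanner files give for the probe. Probes were found for 9 of the 10 genes, 16 probes in all of 61537, and Sesn1, a stress-induced regulator of growth signalling, had no matched probe and was not analysed here. All 16 probes were well above background on all 6 arrays, so all 9 genes were among the 11939 genes tested. Liver RNA was taken from 6 Sprague-Dawley rats, all male, which were bought at 5 weeks of age and fed a basal diet. In 1 group 3 rats were given corn oil, and the other 3 were dosed with 100 mg/kg/day of carbon tetrachloride (CCl4), each rat with its own array. The treatment protocol gives 9 weeks of dosing whereas the series design gives 28 days, and the files do not settle which applies. CCl4 is a solvent that liver enzymes turn into reactive products, and it is used to injure the rodent liver. The labels describe the 3 samples of a group as separate animals.

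p53 is a transcription factor that is held at a low level by the ubiquitin ligase Mdm2 and is released when DNA is damaged or the cell is otherwise stressed. Its targets slow the cell cycle, promote or restrain cell death, adjust metabolism, and feed back on p53 itself. In the liver p53 is known for its part in limiting the growth of damaged hepatocytes, and several of its targets also respond to other signals.

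Levels are log2 processed signals, background-subtracted by the scanner software, minus the 75th percentile of the same array. A level of 0 therefore lies at that percentile, and the level of a gene is compared between animals. The signal of a probe also depends on its sequence, so the levels of different probes do not rank genes, and sums or medians of levels over several genes are given only to set animals side by side. A gene is represented by its probe with the highest mean, and the difference between groups is CCl4 minus corn oil on the log2 scale, given with its standard error. Genes were called at an adjusted p below 0.05 in limma's moderated test, with Benjamini-Hochberg adjustment over all 11939 genes.

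The p53 targets were mostly higher in CCl4 livers, by modest amounts, and none passed the test over all genes. Of the 9 genes 8 had a positive difference, against 42.8% of all genes tested, and the median difference was 0.45 against -0.05 over all genes. limma called 0 of the 9, where it called 0.637% of all genes. At an unadjusted p below 0.05 there were 5 of the 9, all higher in CCl4, where 9.95% of all genes had such a p with that direction and 19.7% in either direction. The same 5 genes, Ccng1, Perp, Tp53inp1, Phlda3 and Bax, had groups that did not overlap, which 27.4% of all genes had in either direction. In all 5 the CCl4 animals were higher, as in 11.5% of all genes, and 0 of the 9 had groups apart with CCl4 lower, as 15.9% of all genes did. Of the members' 16 probes limma called 0, against 0.341% of all probes tested, while 15 had a positive difference, against 44.3%. An unadjusted p below 0.05 was reached by 9 of the 16 in limma, all higher, against 7.88% of all probes in that direction and 16% in either. Groups were apart with CCl4 higher for 8 of the 16, against 9.69% of all probes, and apart with CCl4 lower for 0, against 13.7%. In either direction 23.4% of all probes had groups apart. Probes of the same gene are not independent, so the probe counts partly repeat the gene counts. The members were chosen with earlier results of these data known, so these shares describe the set and do not test it.

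**Figure D1:**
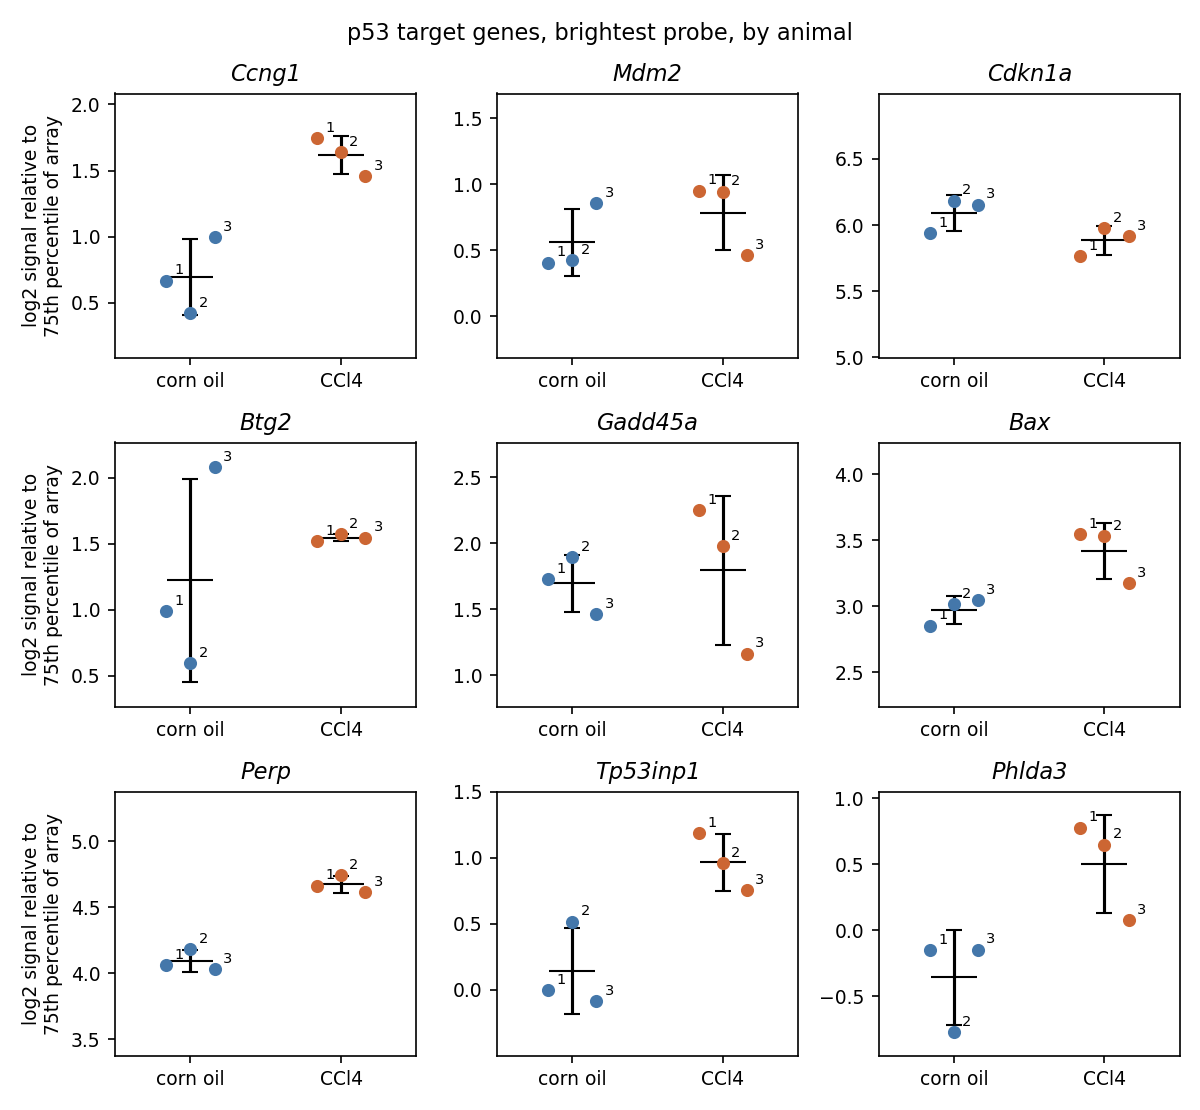
Level of each p53 target gene in each animal, as the log2 signal of its brightest probe relative to the 75th percentile of the array, with corn oil in blue and CCl4 in orange. Points are animals numbered by replicate, the wide bar is the group mean and the whiskers are 1 SD (n = 3). Every panel spans the same log2 range, so heights can be compared as differences. The groups are apart for Ccng1, Bax, Perp, Tp53inp1 and Phlda3 and overlap for Mdm2, Cdkn1a, Btg2 and Gadd45a.

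p53 binds DNA at paired copies of a 10-base half-site, and the promoters of the members were read for it. RefSeq's table for the GRCr8 build holds a window of 250 bases before to 50 after the start for 8 of the 10 genes, without Bax and Tp53inp1. The search used the p53 half-site consensus, which reads the same on both strands, and counted a pair where the copies lay up to 13 bases apart with at most 1 mismatch in all and an intact C and G in the core of each. An exact half-site was found in 4 of the 8 windows, those of Ccng1, Cdkn1a, Gadd45a and Sesn1, against 7.98% of all 33469 windows in the table. A pair was found in 3 of the 8, against 0.565% of all windows. The members were listed because they are p53 targets, so these shares describe their windows and are not a test. The 250 bases before the start of these 3 genes are shown 5′ to 3′ on the gene's strand, because they hold the pairs, which are in capitals. The stretches are chr10:25684877-25685126 on the minus strand for Ccng1, chr20:7150682-7150931 on the plus strand for Cdkn1a and chr4:97486800-97487049 on the minus strand for Gadd45a, all in GRCr8.
Ccng1: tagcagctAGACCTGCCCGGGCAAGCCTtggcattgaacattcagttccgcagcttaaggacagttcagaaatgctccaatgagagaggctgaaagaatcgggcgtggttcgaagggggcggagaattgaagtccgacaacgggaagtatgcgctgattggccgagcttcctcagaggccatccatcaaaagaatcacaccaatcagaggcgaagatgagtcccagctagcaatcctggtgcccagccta
Cdkn1a: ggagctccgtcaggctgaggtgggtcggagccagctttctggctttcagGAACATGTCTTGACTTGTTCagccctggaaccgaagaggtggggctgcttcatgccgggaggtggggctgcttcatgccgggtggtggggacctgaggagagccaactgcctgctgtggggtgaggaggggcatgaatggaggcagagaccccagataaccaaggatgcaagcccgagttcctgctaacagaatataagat
Gadd45a: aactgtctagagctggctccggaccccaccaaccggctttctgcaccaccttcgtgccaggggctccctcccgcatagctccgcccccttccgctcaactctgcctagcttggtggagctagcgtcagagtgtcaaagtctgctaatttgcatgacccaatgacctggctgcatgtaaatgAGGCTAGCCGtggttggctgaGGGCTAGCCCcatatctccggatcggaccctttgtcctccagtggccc
In Ccng1 the copies AGACCTGCCC and GGGCAAGCCT adjoin, from position -242 to -223 counted from the start. In Cdkn1a the copies GAACATGTCT and TGACTTGTTC adjoin, from -201 to -182. In Gadd45a the copies AGGCTAGCCG and GGGCTAGCCC are 11 bases apart, from -69 to -39. A match describes the letters of the window and not a bound site, and binding was not measured here.

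Ccng1 encodes cyclin G1, a p53 target that recruits a phosphatase to Mdm2 and so acts in the feedback on p53. Its level was 0.67, 0.42 and 1.00 in corn oil replicates 1 to 3 and 1.74, 1.64 and 1.46 in CCl4 replicates 1 to 3. The lowest CCl4 animal lay above the highest corn oil animal, and the group means were 0.70 ± 0.29 and 1.61 ± 0.14 (SD, n = 3). The difference was 0.92 ± 0.17, or 1.89-fold, with an adjusted p of 0.0725 in limma, the largest difference of the 9 genes. The other Ccng1 probe was at 0.31, -0.84 and -0.14 in corn oil and at 1.34, 1.46 and 0.32 in CCl4. There the CCl4 range ended just above the highest corn oil animal, since CCl4 replicate 3 was at 0.32, and the difference was 1.26 ± 0.40 (adjusted p = 0.219 over all probes in limma). Of the 3 genes whose promoter pairs are printed above, Ccng1 was the only one with groups apart, and Perp and Phlda3 had groups apart with no such pair in their window. Sequence outside the window was not searched, so a window without a pair does not show that the gene lacks a site.

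Mdm2, the ubiquitin ligase that marks p53 for degradation and is itself a p53 target, was at 0.41, 0.42 and 0.86 in corn oil and at 0.95, 0.94 and 0.46 in CCl4. CCl4 replicates 1 and 2 lay above all corn oil animals while replicate 3 lay among them, so the groups overlapped. The difference was 0.22 ± 0.19 (adjusted p = 0.547 in limma), with a 95% confidence interval of -0.25 to 0.69. Its other probe gave 0.39 ± 0.18, at -1.64, -1.59 and -1.28 in corn oil and -1.33, -0.81 and -1.20 in CCl4, again with overlapping groups. The Mdm2 data therefore allow a difference of 0 as well as one of the size seen for Bax.

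Cdkn1a encodes p21, the inhibitor of cyclin-dependent kinases through which p53 arrests the cell cycle, and its 3 probes did not share 1 sign. The brightest probe was at 5.94, 6.19 and 6.15 in corn oil and at 5.76, 5.97 and 5.92 in CCl4, with a difference of -0.21 ± 0.12 (adjusted p = 0.371 in limma, 95% confidence interval -0.49 to 0.08). The second probe was at 3.94, 3.87 and 4.26 in corn oil and at 4.62, 4.09 and 4.67 in CCl4, with a difference of 0.44 ± 0.20. The third was at -2.35, -2.10 and -1.95 in corn oil and at -1.56, -1.96 and -1.51 in CCl4, with a difference of 0.46 ± 0.18 (adjusted p = 0.284 over all probes in limma). Both of these had CCl4 replicates 1 and 3 above every corn oil animal and replicate 2 within the corn oil range, while the brightest probe had CCl4 replicate 1 as its lowest animal. None of the 3 probes had groups apart.

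The brightest Cdkn1a probe gave processed signals of 36658, 43240 and 41484 units in corn oil and 31793, 42463 and 40230 units in CCl4. The third probe gave 117, 138 and 151 units in corn oil and 198, 174 and 234 units in CCl4. No Cdkn1a probe was flagged as saturated on any array, and 1342 to 1696 other probes of each array were brighter than the brightest of them. The third and the brightest probe, which had the highest and the lowest difference of the 3, were 0.67 apart in their differences, given as a description since the pair was chosen for it. In the other 5 genes with a pair of probes, the differences of both probes were apart by 0.027 for Btg2, 0.040 for Perp, 0.073 for Bax, 0.16 for Mdm2 and 0.34 for Ccng1. No direction can be given for Cdkn1a from these probes.

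**Figure D2:**
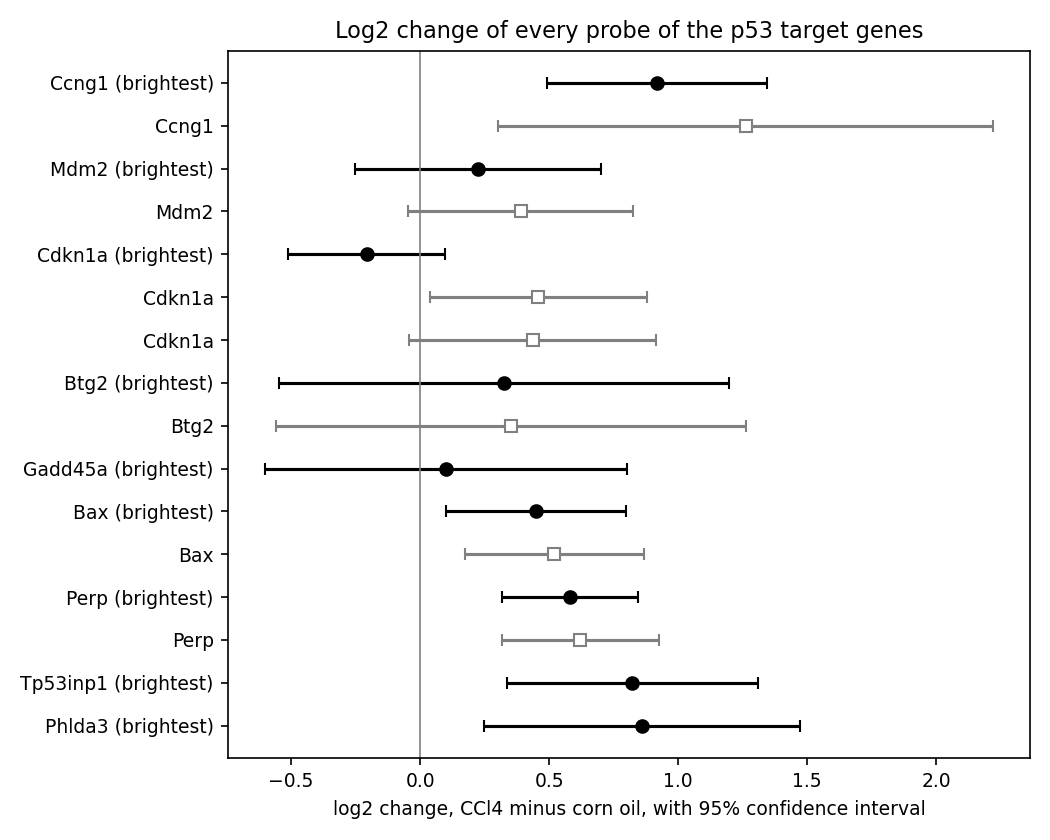
Log2 difference, CCl4 minus corn oil, of all 16 probes of the 9 genes, with 95% confidence intervals from limma's fit over all probes (n = 3 animals per group). Black circles are the brightest probe of a gene and open squares its other probes. 15 of the 16 probes lie above 0, and the exception is the brightest Cdkn1a probe at -0.21.

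Btg2, an antiproliferative gene that is induced within minutes to hours by many stimuli, varied most among corn oil animals. It was at 0.99, 0.60 and 2.08 in corn oil and at 1.52, 1.57 and 1.55 in CCl4. Corn oil replicate 3 was the highest of all 6 animals, the other two corn oil animals were the lowest, and the CCl4 animals lay close together between them. The SD was 0.77 in corn oil and 0.027 in CCl4 (n = 3), and the difference was 0.33 ± 0.36 (adjusted p = 0.642 in limma, 95% confidence interval -0.55 to 1.20). Its other probe had the same high animal, at 0.83, 0.40 and 1.94 in corn oil and 1.28, 1.44 and 1.51 in CCl4. Without corn oil replicate 3 the difference was 0.75, and without corn oil replicate 2 it was 0.012, so single control animals moved its size in both directions.

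Gadd45a, a small protein that slows division and aids DNA repair after damage, was at 1.73, 1.89 and 1.46 in corn oil and at 2.25, 1.98 and 1.16 in CCl4. CCl4 replicates 1 and 2 were the highest of the 6 animals and CCl4 replicate 3 was the lowest. The difference was 0.10 ± 0.29 (adjusted p = 0.875 in limma, 95% confidence interval -0.60 to 0.80). Leaving out CCl4 replicate 3 gave 0.42, leaving out CCl4 replicate 1 gave -0.13 and leaving out corn oil replicate 3 gave -0.016, so its sign rested on single animals.

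Among the genes of cell death, Bax encodes the protein that opens the outer mitochondrial membrane. It was at 2.85, 3.01 and 3.04 in corn oil and at 3.54, 3.53 and 3.18 in CCl4, with CCl4 replicate 3 nearest to the controls. The difference was 0.45 ± 0.14, or 1.36-fold (adjusted p = 0.166 in limma). The other Bax probe gave 0.52 ± 0.14, with 2.12, 2.17 and 2.37 in corn oil and 2.78, 2.90 and 2.54 in CCl4. Both probes had every CCl4 animal above every corn oil animal.

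Perp, a membrane protein of desmosomes that p53 induces during cell death, had the smallest standard error and the smallest p of the 9 genes. It was at 4.06, 4.19 and 4.03 in corn oil and at 4.66, 4.74 and 4.61 in CCl4, or 4.09 ± 0.082 and 4.67 ± 0.065 (SD, n = 3). The difference was 0.58 ± 0.10, or 1.5-fold, with an adjusted p of 0.0653 in limma. All 3 CCl4 animals lay close together and well clear of the controls. The other Perp probe gave 0.62 ± 0.13, with 1.56, 1.72 and 1.83 in corn oil and 2.42, 2.35 and 2.21 in CCl4. Perp passed when the variance was allowed to follow the signal (adjusted p = 0.0407 in limma), under which 1.31% of all genes were called. Both Perp (0.69, adjusted p = 0.0265) and Ccng1 (0.91, adjusted p = 0.0444) passed after normexp background correction in limma, under which 1.82% of all genes were called.

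Tp53inp1, a stress-induced nuclear protein that helps p53 promote death and autophagy, was at -0.0018, 0.52 and -0.086 in corn oil and at 1.18, 0.96 and 0.76 in CCl4. Its highest control, corn oil replicate 2, lay below the lowest CCl4 animal, replicate 3. The difference was 0.82 ± 0.20, or 1.77-fold (adjusted p = 0.106 in limma). Phlda3, which competes with the survival kinase Akt for membrane lipids, was at -0.15, -0.77 and -0.15 in corn oil and at 0.78, 0.65 and 0.078 in CCl4. CCl4 replicate 3 again lay nearest to the controls, and the difference was 0.86 ± 0.25, or 1.81-fold (adjusted p = 0.153 in limma).

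CCl4 replicate 3 was the lowest CCl4 animal for 7 of the 9 genes, against 32% of all genes tested. CCl4 replicate 1 was the lowest for the other 2, Btg2 and Cdkn1a, and for 30% of all genes, and CCl4 replicate 2 for none of the 9 and for 38% of all genes. CCl4 replicate 3 was the lowest for all 5 genes with groups apart, as it was for 53.5% of the 1373 genes whose groups were apart with CCl4 higher. The median of the 9 levels was 0.99, 0.60 and 1.46 in corn oil and 1.74, 1.64 and 1.46 in CCl4. The value of 1.46 was that of Gadd45a in corn oil replicate 3 and of Ccng1 in CCl4 replicate 3. These are different probes, so the equal medians do not make the 2 animals level. By gene, CCl4 replicate 3 was above corn oil replicate 3 for the 5 genes with groups apart, which follows from how those genes were picked out. It was below corn oil replicate 3 for Btg2, Cdkn1a, Gadd45a and Mdm2. Without CCl4 replicate 3 the median difference was 0.57, with limma calling 0 of the 9 (5 at an unadjusted p below 0.05) and 2.02% of all genes.

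**Figure D3:**
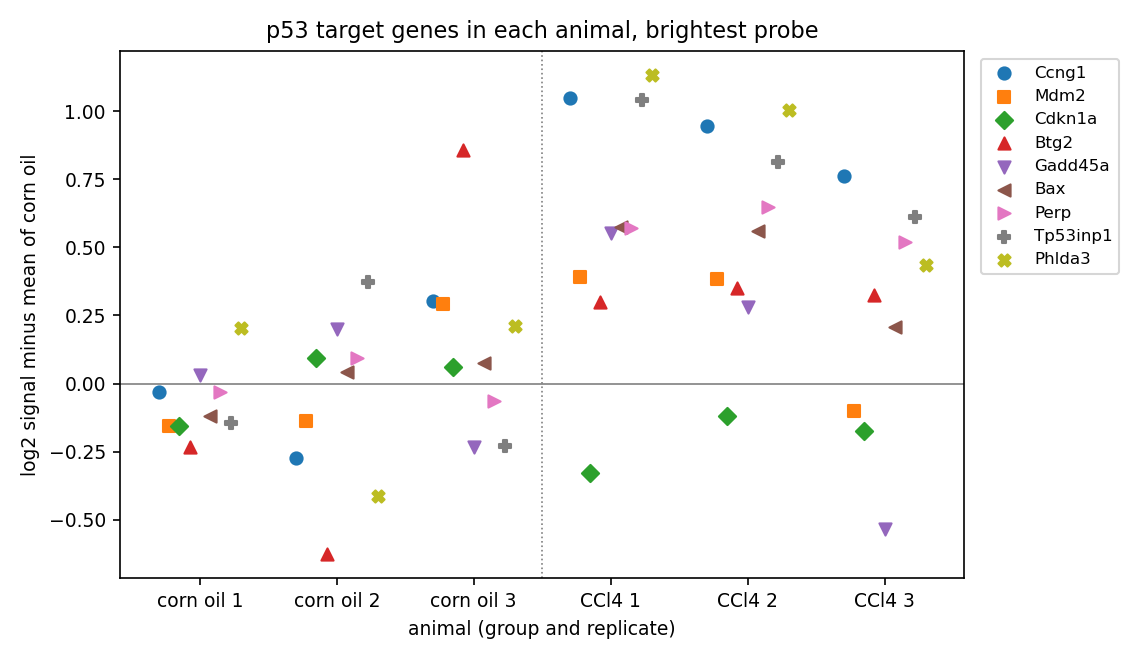
Level of each p53 target gene in each animal minus that gene's corn oil mean, on the log2 scale, for the brightest probe, with 1 symbol per gene. The dotted line parts corn oil from CCl4. Of the CCl4 animals, replicate 3 lies nearest to the controls for Ccng1, Bax, Perp, Tp53inp1 and Phlda3 and below them for Gadd45a. Corn oil replicate 3 stands high for Btg2.

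The arrays lay on 2 slides, with the 3 corn oil animals and CCl4 replicate 1 on the first and CCl4 replicates 2 and 3 on the second, which was scanned on another day. With slide as a block the differences equal those within the first slide, which set 1 CCl4 animal against 3. They were 1.05 for Ccng1, 1.13 for Phlda3, 1.04 for Tp53inp1, 0.58 for Bax, 0.57 for Perp, 0.55 for Gadd45a, 0.39 for Mdm2, 0.30 for Btg2 and -0.33 for Cdkn1a. limma called 0 of the 9 with slide as a block, with 5 at an unadjusted p below 0.05, and called 0.0335% of all genes. The smallest adjusted p of the 9 was then 0.254, for Ccng1. The direction of all 9 genes was that of the fit without the block, and the sizes for Gadd45a, Mdm2 and Cdkn1a were more than 1.5 times those without it.

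Mdm4, the partner of Mdm2 in holding p53 inactive, differed by 0.075 ± 0.14 (adjusted p = 0.791 in limma). Of 30 genes in the list of the p53 regulatory circuit, 23 were tested and limma called 0, with 5 at an unadjusted p below 0.05, while 1 had groups apart and higher and 3 apart and lower in CCl4. Those nearest to the threshold were Wrap53, whose product serves telomerase (-0.81 ± 0.13, adjusted p = 0.0602), Nbn, a DNA break sensor (-0.75 ± 0.21, adjusted p = 0.138), and Atm, the kinase that reports DNA breaks to p53 (0.60 ± 0.15, adjusted p = 0.113). Tp63, a p53 relative, was at 0.76 ± 0.30 (adjusted p = 0.245). The median difference of the list was 0.038.

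Other known p53 targets had a median difference of 0.15, and of 34 listed, 29 were tested and limma called 0, with 6 at an unadjusted p below 0.05. Of the 29 tested, 5 had groups apart and higher, and 3 apart and lower, in CCl4, against 11.5% and 15.9% of all genes. The largest was Abcb1b, a drug exporter, at 3.24, 3.35 and 3.37 in corn oil and 5.98, 6.24 and 4.77 in CCl4 (2.34 ± 0.37, 5.08-fold, adjusted p = 0.0594). Abcb1b responds to other signals as well. Fas, a death receptor (0.67 ± 0.25, adjusted p = 0.228), Gdf15, a stress hormone (0.63 ± 0.30, adjusted p = 0.302), and Bbc3, the Bax activator Puma (0.48 ± 0.24, adjusted p = 0.312), had overlapping groups. The DNA damage recognition gene Ddb2 (-0.49 ± 0.15, adjusted p = 0.166) and the mitochondrial enzyme gene Fdxr (-0.26 ± 0.13, adjusted p = 0.321) had groups apart and lower in CCl4.

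Of 19 relatives of the members limma called 0 (3 at an unadjusted p below 0.05), with 4 apart and higher and 0 apart and lower, and the median difference was 0.16. Btg3, a relative of Btg2, was at -3.78, -3.61 and -3.61 in corn oil and -2.14, -1.91 and -3.01 in CCl4 (1.31 ± 0.28, adjusted p = 0.0891), and Bok, a relative of Bax, was at 1.38 ± 0.43 (adjusted p = 0.171). Gadd45g, a relative of Gadd45a, was at -0.68 ± 0.46 (adjusted p = 0.445), and Ccng2, a relative of Ccng1, at -0.16 ± 0.11 (adjusted p = 0.462). Btg1 (0.084 ± 0.38), the second Cip/Kip inhibitor Cdkn1b (0.16 ± 0.16) and Gadd45b (0.21 ± 0.25) had overlapping groups.

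Among the cyclins and kinases that p21 can hold, and its partner Pcna, limma called 1 of 13, and the median difference was 0.40. At an unadjusted p below 0.05 in limma there were 6, with 5 higher and 1 lower, against 19.7% of all genes in either direction. Groups were apart and higher for 5 and apart and lower for 2, against 11.5% and 15.9% of all genes. Ccna2, cyclin A2 of DNA replication and early mitosis, rose 2.88-fold (1.53 ± 0.14, adjusted p = 0.0224), from -2.73, -2.29 and -2.38 in corn oil to -0.84, -1.01 and -0.98 in CCl4. The mitotic cyclin Ccnb2 (2.84-fold, adjusted p = 0.0725) and the mitotic kinase Cdk1 (3.54-fold, adjusted p = 0.0755) had groups apart without passing. The G1 cyclin Ccnd1 was at 0.26 ± 0.16 (adjusted p = 0.411), and Cdk2, the main kinase that p21 inhibits, at -0.51 ± 0.17 (adjusted p = 0.191) with groups apart and lower. Cdk6, a kinase of G1, was at -0.26 ± 0.15 (adjusted p = 0.372), also with groups apart and lower.

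Of 23 genes of the mitochondrial death pathway around Bax, 22 were tested and limma called 1. At an unadjusted p below 0.05 in limma there were 3, with 2 higher and 1 lower, against 19.7% of all genes in either direction. Bcl2a1, a survival relative of Bcl2 found in blood-derived cells, rose 2.27-fold (1.18 ± 0.15, adjusted p = 0.0340), at -3.13, -2.84 and -3.11 in corn oil and -2.08, -1.74 and -1.71 in CCl4. The survival gene Bcl2l2 was at -0.24 ± 0.092 (adjusted p = 0.230) and the caspase inhibitor Xiap at -0.22 ± 0.15 (adjusted p = 0.445). Neither Bcl2a1 nor Ccna2 passed in limma with slide as a fixed block, within the first slide or with replicate number as a block, nor without corn oil replicate 3, CCl4 replicate 1 or CCl4 replicate 2. In limma Bcl2a1 also failed with no filter on dim probes (adjusted p = 0.0593) and without corn oil replicate 1 (0.119) or 2 (0.0624). Ccna2 also failed in limma with the mean of its probes (adjusted p = 0.0510). The median of the mitochondrial death list was 0.15. Bok, which also belongs to this list, had groups apart and higher, and Bcl2l2 and Xiap had groups apart and lower.

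**Figure D4:**
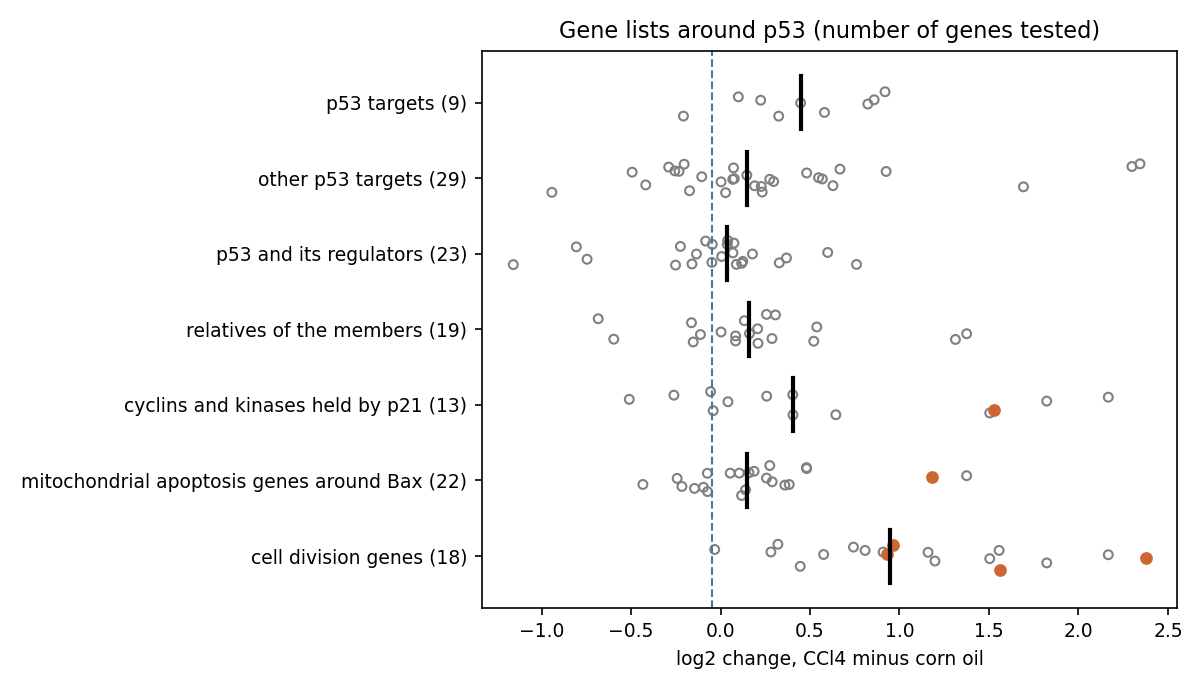
Log2 difference, CCl4 minus corn oil, of each gene tested (circles) in the p53 targets and in 6 lists around them, with the number of genes tested in parentheses. Filled circles are genes with an adjusted p below 0.05, black bars are list medians, and the dashed line is the median of all genes at -0.05. The p53 targets have a median of 0.45 and no filled circle, and the cell division genes have a median of 0.95 and 4 filled circles.

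Other genes differed in the same livers. In whole tissue, fewer cells of a type and less RNA per cell cannot be told apart. Of 18 cell division genes tested limma called 4, all higher in CCl4, and 17 had a positive difference. At an unadjusted p below 0.05 in limma there were 15, all higher, against 9.95% of all genes in that direction. Groups were apart and higher for 15, against 11.5% of all genes. The summed linear level of the 18 genes was 9.23 to 12.3 in corn oil and 19.2 to 23.5 in CCl4. Those called were Rrm2 (5.19-fold, adjusted p = 0.0114), Aurka (adjusted p = 0.0256), Ube2c (adjusted p = 0.0327) and Birc5 (adjusted p = 0.0462), while Mki67 was at 0.81 ± 0.17 (adjusted p = 0.0830). Hepatocyte markers, all 10 of them well above background on 6 arrays, summed to 6432 to 6658 in corn oil and 5333 to 5805 in CCl4, with 0 called by limma (2 at an unadjusted p below 0.05, both lower), Alb at -0.21 ± 0.14 (adjusted p = 0.434) and Cyp2e1 at -0.40 ± 0.23 (adjusted p = 0.370). Of 12 macrophage markers limma called 2, both higher, Trem2 (4.33 ± 0.32, adjusted p = 0.0106) and Gpnmb (3.04 ± 0.42, adjusted p = 0.0462). Of the 12, 6 had a negative difference and the median was -0.14. At an unadjusted p below 0.05 in limma there were 7 of the 12, with 4 higher and 3 lower, among them the Kupffer cell gene Clec4f (-0.35 ± 0.14, adjusted p = 0.247) and the complement genes C1qa (-0.37 ± 0.15, adjusted p = 0.251) and C1qc (-0.60 ± 0.15, adjusted p = 0.110). The sum of the 12 was 165.9 to 202.4 in corn oil and 147.8 to 186.0 in CCl4. The sum of 10 stellate cell markers was 41.4 to 49.5 in corn oil and 54.6 to 78.7 in CCl4, that of 6 bile duct markers 1.61 to 1.71 and 1.95 to 4.69, that of 4 endothelial markers 40.3 to 47.3 and 32.6 to 39.1, and that of 10 lymphocyte markers 5.71 to 7.03 and 5.57 to 5.91. Of these limma called 1 lymphocyte gene, the protease gene Gzma (-1.32 ± 0.14, adjusted p = 0.0252), and 0 of the stellate cell, bile duct and endothelial markers, of which 4, 1 and 1 had an unadjusted p below 0.05. Single genes carried 2 of these sums. Kdr, at 5.15, 5.03 and 5.32 in corn oil and 4.71, 4.73 and 4.90 in CCl4, carried the endothelial sum, while Cdh5 (0.15 ± 0.13) and Lyve1 (0.10 ± 0.20) had overlapping groups. Spp1 at 1.57 in CCl4 replicate 3, against -1.02 and -2.19 in the other CCl4 animals, carried the highest bile duct value, while Krt19 (-0.17 ± 0.16) and Krt7 (0.0079 ± 0.22) had overlapping groups. Of the 7 genes named as passing in this paragraph, limma called 1 with slide as a fixed block (Rrm2) and 1 with the replicate number as a block (Trem2). It called 0 with CCl4 replicate 2 left out, and all 7 had an unadjusted p below 0.05 in each of these fits. Of all genes 0.0335%, 0.0838% and 0.0168% were called there. With no filter on dim probes limma called 4 of the 7, against 0.364% of all genes. With a corn oil array left out it called 2 (replicate 1), 3 (replicate 2) or 1 (replicate 3), against 0.226%, 0.360% and 0.0419% of all genes. With a CCl4 array left out it called 1 (replicate 1) or 6 (replicate 3), against 0.0503% and 2.02% of all genes. The part of these cell types in the levels of the p53 targets was not tested.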

How the data were processed

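Each deposited scanner file gives the intensity of every spot as Agilent Feature Extraction read it. Its version is 10.7 in the submitters' processing notes and 10.7.1.1 per the file headers. The software had removed background; arrays were not brought to a common scale. Spot flags (well above background, saturation, outlier) are other columns of these deposited files. The authors' value table is a ratio on a linear scale. Comparing it with the scanner values showed 1 divisor per array for all processed signals. The RNA was labelled with Cy3 from 0.2 µg, per the labels' protocols.

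Of 61537 probes, 45.8% matched 1 gene symbol through their RefSeq accession in the GRCr8 gene table. The array's design names an older build, so no coordinates of probes are given. Control spots and 26 probes with an outlier flag were left out. Probes well above background on at least 3 of 6 arrays were kept (40478 probes, 11939 genes). From the log2 processed signal of a probe the log2 of that array's 75th percentile (582.6 to 675.6 units) was taken away. The test was limma's lmFit and eBayes (limma 3.58.1, R 4.3.3), two-sided, by gene and by probe. Python 3.11.15, numpy 2.4.6, pandas 2.3.3 and matplotlib 3.10.9 were also used. With 3 arrays per group, their number sets the precision. Arrays correlated at 0.984 to 0.990 within groups and at 0.973 to 0.987 between them, across genes.

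Gene names followed a rule: all members, the called genes of each list, otherwise up to 2 per direction with the smallest p, and 12 fixed genes. The members, lists and tests were chosen with earlier results of these data known. The gene test was checked on simulated data. Alternatives were quantile normalization, median scaling, normexp (on median spot signals, offset 50), the authors' values, 2 other filters, probe means, a variance trend, array weights, blocks for slide (fixed, random) and for replicate number, only the first slide's arrays, and each array left out in turn. Some items are withheld and are not reported here.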

Additional observations from a re-analysis of the deposited data

How the results depend on the processing

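Of the 9 p53 targets, 2 were called after normexp background correction (Perp and Ccng1), where 1.82% of all genes were, and 1 with a variance trend (Perp), where 1.31% were, against 0.637% in the reported fit, and 0 under the other 17 alternatives, where 4 to 6 had an unadjusted p below 0.05 in limma. The number with a positive difference was 7 to 9 and the median difference 0.35 to 0.57 over all alternatives. Members with groups apart and higher numbered 5 under 6 other scalings, filters and probe rules and 4 under normexp, where the groups of Bax overlapped. The members' probes had 0 calls under all alternatives run by probe. Gene signs turned in 3 cases, none of them called: Cdkn1a was at 0.23 with the mean of its probes, and Gadd45a ranged from -0.13 to 0.42 when 1 array was left out, at -0.13 lacking CCl4 replicate 1 and -0.016 lacking corn oil replicate 3.

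Of 101 wider p53 network genes 2 were called (Ccna2 and Bcl2a1), against 0.637% of all genes. At an unadjusted p below 0.05 in limma there were 22 of the 101, against 19.7% of all genes. The count was 4 under normexp, with the filter on all 6 arrays, with a variance trend and with array weights, 1 without a filter, and 0 with slide as a fixed block, within the first slide and with the replicate number as a block, where 15, 19 and 23 had an unadjusted p below 0.05 in limma. When 1 array was left out the count was 0 to 6. It was 6 without CCl4 replicate 3 (2.02% of all genes), and 1 without corn oil replicate 1 (0.226%) or 2 (0.360%). It was 0 when corn oil replicate 3 (0.0419%), CCl4 replicate 1 (0.0503%) or CCl4 replicate 2 (0.0168%) was dropped. Over these fits 14 to 29 of the 101 had an unadjusted p below 0.05 in limma, against 13.3% to 20.4% of all genes. The cause of these shifts was not tested. Deviations of same-numbered animals from their group means correlated at -0.052, 0.16 and 0.019 across genes, so the numbers were not taken as pairs; with the replicate block limma called 0 of the 9 members (smallest adjusted p 0.119, for Perp; 5 at an unadjusted p below 0.05) and their median stayed at 0.45. Array number, 3 per group, limits what can be told apart here, and all members' probes were well above background on all 6 arrays.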

Other observations

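Corn oil replicate 3, the animal with the highest Btg2, was also the highest of the 6 animals for other immediate early genes, which are switched on within minutes of a stimulus. This list was chosen after the Btg2 values were seen, and no test was made. Junb, a subunit of the AP-1 transcription factor, was at 2.00, 2.06 and 3.71 in corn oil and at 2.90, 2.62 and 3.09 in CCl4. Ier2, an early response nuclear protein, was at 3.30, 3.85 and 4.52 in corn oil and at 3.38, 3.23 and 3.89 in CCl4. Ier3, an early response gene of cell survival, was at 1.15, 0.98 and 2.21 in corn oil and at 0.99, 1.39 and 1.66 in CCl4. Jun, the partner of Fos in AP-1, was at 1.76, 1.71 and 3.12 in corn oil and at 2.92, 2.76 and 1.95 in CCl4. Of 12 such genes that animal was the highest for 5 (41.7%), against 23.7% of all genes tested, 41.7% of the macrophage markers and 30% of the hepatocyte markers. The fifth was Egr1, a zinc finger transcription factor. Others in the list did not share this, as Zfp36 was lowest among the corn oil animals in replicate 3 (-0.79, -1.77 and -2.27), and Atf3 was higher in all CCl4 animals (2.01, 2.17 and 1.45) than in corn oil (-1.41, -0.068 and 0.90; 2.07 ± 0.56, adjusted p = 0.132 in limma).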
